A study of Mus musculus with 12 samples.

Results

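The 150 most abundant long noncoding RNAs (lncRNAs) of the mouse liver were examined, chosen by their mean level over all 12 mice from the 9959 genes that the deposited table types as lncRNA. The level was given in TPM (reads corrected for gene length and scaled to the same total in every mouse). Levels and ranks of these genes are therefore a description of the choice. The choice also touched the group differences, because 8 of the 12 mice received the hairpin virus and a lncRNA raised in them ranked higher for it. Male C57BL/6 mice received adenovirus at 7 weeks of age, 500000000 pfu in total, and livers were collected on day 7. The Ad-Ctrl group (4 mice) received a Lac virus with the empty pAdV5 virus, Ad-shmGULL (4 mice) received the hairpin virus sh-mGULL against the mouse lncRNA GULL with pAdV5, and Ad-shmGULL+hGULL (4 mice) received sh-mGULL with a virus expressing the human GULL. All 12 mice thus carried adenovirus, and no control hairpin was named for Ad-Ctrl. Mice of a group are separate animals of 1 strain and sex.

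LncRNAs are transcripts without a long reading frame that are made, capped and spliced by the same machinery as messenger RNAs, and many stay in the nucleus. Some build nuclear bodies, some carry small nucleolar RNAs (snoRNAs) or microRNAs (miRNAs) in their introns or exons, and many are read from the strand opposite a protein-coding gene or from a start site shared with one. In liver, several lncRNAs are known to change with feeding, fasting and diet.

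Levels fell steeply with rank. The highest mean was 31210 TPM and the lowest of the 150 was 11.2 TPM, with a median of 18.45 TPM. Only 10 lncRNAs reached a mean of 100 TPM, 20 reached 50 TPM and 65 reached 20 TPM. Together the 150 held 92.87% of all TPM assigned to lncRNA genes, and none was listed at 0 in any mouse. That share rests largely on the 2 highest rows, which made up 84.54% of the summed mean TPM of the 150 (described below). All 150 passed the filter for the tests (mean TPM of at least 1), as did 959 other lncRNAs. At the lower edge, 4930405O22Rik (11.31 TPM), Gm15318 (11.29 TPM) and 2900052L18Rik (11.2 TPM) were inside, while Zbtb11os1 (11.02 TPM), 4930481A15Rik (11 TPM) and Gm16348 (10.74 TPM) were just outside. In Ad-Ctrl alone, 18 of the 150 had a mean under that of the first lncRNA outside, and 140 of the 150 were among the 150 highest of that group.

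**Figure D1:**
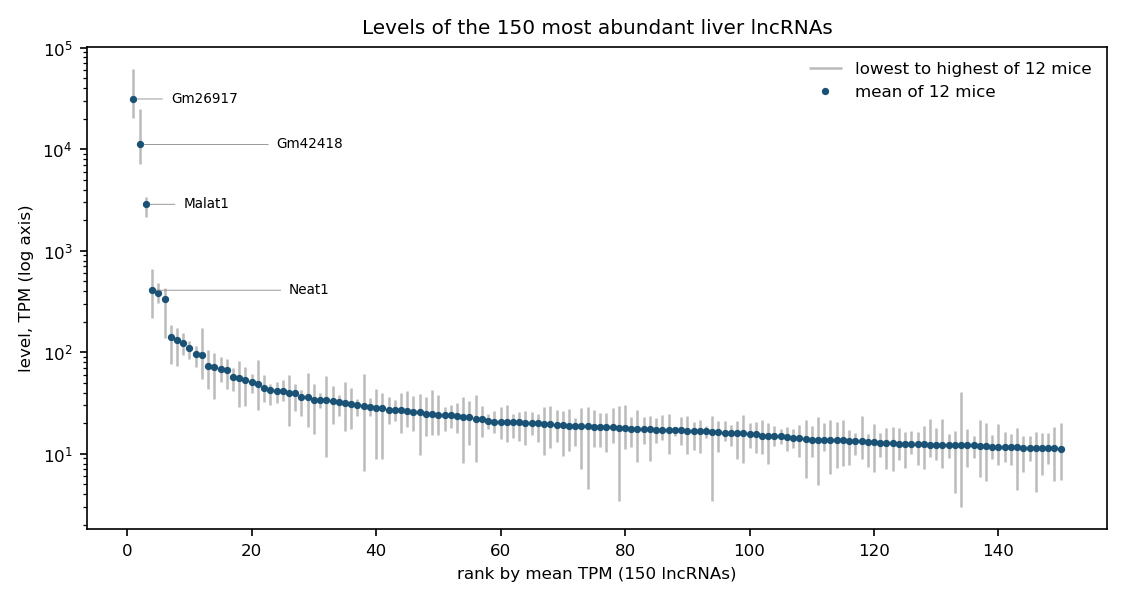
Level of each of the 150 lncRNAs in TPM on a log axis against its rank by mean TPM, with points for the mean of 12 mice and bars from the lowest to the highest mouse. The means run from 31210 TPM for Gm26917 to 11.2 TPM, and only 10 of them reach 100 TPM.

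The annotation of these genes has changed since the table was made. Of the 150 Ensembl identifiers, 144 were found in GENCODE vM39 (GRCm39), 141 of them as lncRNA and 3 as protein-coding (Ifi30, C4a and Tug1). By that annotation 58 overlapped a protein-coding gene on the opposite strand, 17 overlapped one on the same strand, 14 started divergently within 5000 bases of a coding gene, and 43 had no coding gene within 5000 bases. Exons of 54 shared bases with exons of a coding gene. The libraries were strand-specific, but the strand setting of the counting was not stated, so reads of such a pair cannot be told apart with certainty. RefSeq (GRCm38.p6, the build of the table) gave a position for 102 of the 150 by symbol, and these positions are used below.

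The sequences printed first are the start regions of 3 lncRNAs that were higher after the hairpin virus with an adjusted p under 0.05, shown because their places relative to coding genes differ and recur in the results. RefSeq windows of 300 bases (250 before and 50 after the start, GRCm38.p6) were read, which existed for 86 of the 150 lncRNAs. For Gm35986 (chr3:129532339-129532638, minus strand) the capitals mark the 97 bases shared with the window of Elovl6 on the plus strand, and the start sites of the 2 genes lie 2 bases apart, facing away from each other. RefSeq gives a second Gm35986 start 389 bases from that of Elovl6, whose window is not printed. In the other windows the capitals mark matches on either strand to CACGTG (an E-box core), TCACNCCAC (a sterol response element), CCAAT (the box bound by NF-Y), TATAAA (the TATA box) or GGGCGG (an Sp1 box), so that adjoining or overlapping matches form 1 run. Gm31522 (chr11:81987106-81987405, minus strand) has 1 TATAAA, and the window of 5033403H07Rik (chr5:52992243-52992542, minus strand) has 2 matches to the NF-Y box and 2 to the TATA box.
Gm35986: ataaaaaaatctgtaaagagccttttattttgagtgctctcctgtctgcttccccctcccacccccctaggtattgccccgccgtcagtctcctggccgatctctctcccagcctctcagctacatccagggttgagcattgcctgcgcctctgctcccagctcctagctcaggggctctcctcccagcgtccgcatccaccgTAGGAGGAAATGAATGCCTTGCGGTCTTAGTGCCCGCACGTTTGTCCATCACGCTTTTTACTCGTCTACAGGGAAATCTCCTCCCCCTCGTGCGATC
Gm31522: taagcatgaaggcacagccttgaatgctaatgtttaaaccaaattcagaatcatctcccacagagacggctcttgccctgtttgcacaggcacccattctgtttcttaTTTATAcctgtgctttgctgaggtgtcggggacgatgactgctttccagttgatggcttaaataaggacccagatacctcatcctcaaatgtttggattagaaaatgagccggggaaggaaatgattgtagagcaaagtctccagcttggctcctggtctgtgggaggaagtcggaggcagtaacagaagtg
5033403H07Rik: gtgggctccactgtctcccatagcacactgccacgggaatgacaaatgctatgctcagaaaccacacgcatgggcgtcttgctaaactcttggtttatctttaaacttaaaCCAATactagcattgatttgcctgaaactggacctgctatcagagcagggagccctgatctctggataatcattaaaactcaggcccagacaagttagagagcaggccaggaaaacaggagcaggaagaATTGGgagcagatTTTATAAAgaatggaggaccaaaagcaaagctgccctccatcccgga

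Of all 32851 RefSeq windows of this length, 7.15% held CACGTG, 1.24% TCACNCCAC, 37.4% CCAAT, 13.6% TATAAA and 35.7% GGGCGG. Among the 133 windows of the abundant lncRNAs the shares were 6.02%, 3.01%, 30.1%, 25.6% and 24.1%. A match describes letters in the window and was not tested as a binding site.

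The second set of sequences is the mature miRNAs that lie inside abundant lncRNAs, shown because the TPM of the host is the only measurement of these loci here and the miRNAs themselves were not measured. In GENCODE vM39, 9 of the 150 lncRNAs hold 10 annotated miRNA genes on their own strand. For most hosts 1 arm is printed, the one usually known as the guide strand, and for miR-142 both arms. AU020206 holds Gm55660, for which no sequence was matched. Another of the 9, Gm29966, holds Mir122, the best known miRNA of hepatocytes, and is given by its values only. Capitals mark the seed, bases 2 to 8, which pairs with target messages. Hosts are named in brackets, and miR-29b-3p and miR-29c-3p share 1 seed, whereas each of the others has its own.
mmu-miR-22-3p (Mir22hg): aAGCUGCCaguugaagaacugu
mmu-miR-802-5p (1810044K17Rik): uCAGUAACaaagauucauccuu
mmu-miR-142a-5p (Mir142hg): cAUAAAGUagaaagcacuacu
mmu-miR-142a-3p (Mir142hg): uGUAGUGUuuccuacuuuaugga
mmu-miR-223-3p (F630028O10Rik): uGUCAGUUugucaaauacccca
mmu-miR-101a-3p (E130102H24Rik): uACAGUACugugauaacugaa
mmu-miR-30c-5p (Gm27028): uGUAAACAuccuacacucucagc
mmu-miR-29b-3p (A330023F24Rik): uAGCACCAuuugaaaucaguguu
mmu-miR-29c-3p (A330023F24Rik): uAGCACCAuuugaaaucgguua

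The 2 highest rows were Gm26917 and Gm42418, gene models known to overlap sequence of the ribosomal RNA repeat, so that ribosomal RNA reads can be counted on them. They held 84.54% of the summed mean TPM of the 150, and with Malat1 the share was 90.25%. Gm26917 was at 38319, 30841, 20255 and 32066 TPM in Ad-Ctrl, at 61714, 29168, 32523 and 23452 TPM in Ad-shmGULL, and at 26110, 27280, 26202 and 26542 TPM in Ad-shmGULL+hGULL. Mouse 1 of Ad-shmGULL stood highest, and the 4 mice of Ad-shmGULL+hGULL lay close together. Gm42418 ranged from 7218.7 to 24749 TPM in Ad-Ctrl, from 7451.8 to 17572 TPM in Ad-shmGULL and from 8203.4 to 9016.8 TPM in Ad-shmGULL+hGULL. The pair took 2.747% to 5.682% of all TPM in Ad-Ctrl, 3.314% to 7.929% in Ad-shmGULL and 3.431% to 3.57% in Ad-shmGULL+hGULL. TPM adds to the same total in every mouse, so a larger share of the pair leaves less for all other genes. Without the pair, the abundant lncRNAs summed to 6295 TPM in mouse 1 of Ad-shmGULL, where the pair took 7.929%, against 7159 to 8396 TPM in the other mice of that group. In mouse 4 of Ad-Ctrl, where the pair took 5.682%, they summed to 7839 TPM. The part of the pair in the low sum was not tested. The groups overlapped in both genes, and no comparison passed an adjusted p under 0.05 (lowest 0.343, Gm42418 in Ad-shmGULL+hGULL against Ad-Ctrl, limma).

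The livers carried the markers of hepatocytes at high level, with Alb, Apoa1, Ttr, Serpina1c and Cyp2e1 summing to 77460 to 112500 TPM in Ad-Ctrl, 81770 to 97510 TPM in Ad-shmGULL and 70540 to 84260 TPM in Ad-shmGULL+hGULL. Of the marker sums for other cell types, that of the 3 endothelial genes was 60.99 to 97.95 TPM in Ad-Ctrl, 95.05 to 117.1 TPM in Ad-shmGULL and 91.82 to 107.1 TPM in Ad-shmGULL+hGULL. The 2 genes of dividing cells summed to 15.57 to 37.56, 24.28 to 48.26 and 33.1 to 56.12 TPM in the same order, and the 3 neutrophil genes to 96.38 to 226.1, 112.3 to 260.6 and 85.49 to 133.2 TPM. Sums for 5 macrophage genes had group means of 184.6, 185.7 and 187.1 TPM, but the members did not move together. On the log2 scale Marco differed from Ad-Ctrl by -1.04 in Ad-shmGULL and -0.935 in Ad-shmGULL+hGULL (adjusted p = 0.164 and 0.169, limma). The other members differed by -0.0658 to 0.261 and by -0.104 to 0.428. No marker was at 0 in every mouse. In bulk tissue fewer cells of a type and less RNA per cell cannot be told apart, and the part of these sums in the results below was not tested.

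Differences between groups were tested with limma on log2(TPM + 1) over all 16378 genes with a mean TPM of at least 1, and fold changes are on that scale, which understates changes of low genes. The threshold of the study was used to count changed lncRNAs: the size of the log2 fold change exceeded 0.5 and the P before adjustment lay below 0.05. A stricter count took only those with p under 0.05 after Benjamini-Hochberg adjustment over all 16378 genes. Of the 150, 38 passed the fold and P threshold in at least 1 of the 3 comparisons and 112 passed it in none, a share of 25.3% against 12.7% of all genes tested.

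The first comparison asked what the hairpin virus changed. Against Ad-Ctrl, 17 of the 150 were higher in Ad-shmGULL (11.3%, against 5.35% of all genes tested and 8.03% of the other lncRNAs) and 5 were lower (3.33%, against 2.3% of all genes tested). The higher share is not free of the ranking, which favoured lncRNAs raised in the hairpin groups. Among the 150 highest lncRNAs of the Ad-Ctrl mice, a ranking that leans the other way, 10 were higher and 5 lower, and among the 150 highest of Ad-shmGULL+hGULL, the group not compared, 17 were higher and 4 lower. At an adjusted p under 0.05, 7 were higher and 0 lower, where the shares of all genes were 2.44% and 0.794%. The 4 mice of a group lay entirely above those of the other in 10 lncRNAs and entirely below in 3, against 6.93% and 2.06% of all genes. The median difference of the 150 was 0.0286 on the log2 scale and that of all genes 0.0867, and with scaling by the median of ratios they were -0.0699 and -0.00305. Under that scaling the split was 15 higher and 10 lower, and with quantile normalization 16 and 9. Without mouse 2 of Ad-Ctrl it was 12 higher and 2 lower. Over all genes, 1253 past the threshold became 1173, 1105 and 1024 in these 3 settings. The 7 lncRNA calls at an adjusted p became 2 without mouse 2 or mouse 3 of Ad-Ctrl, 12 without its mouse 1, and 4, 3 and 16 without mice 1, 2 and 3 of Ad-shmGULL. Over all genes the 529 calls became 176 and 165 without mice 2 and 3 of Ad-Ctrl and 946 without its mouse 1. They were 402, 190 and 1057 without mice 1, 2 and 3 of Ad-shmGULL.

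**Figure D2:**
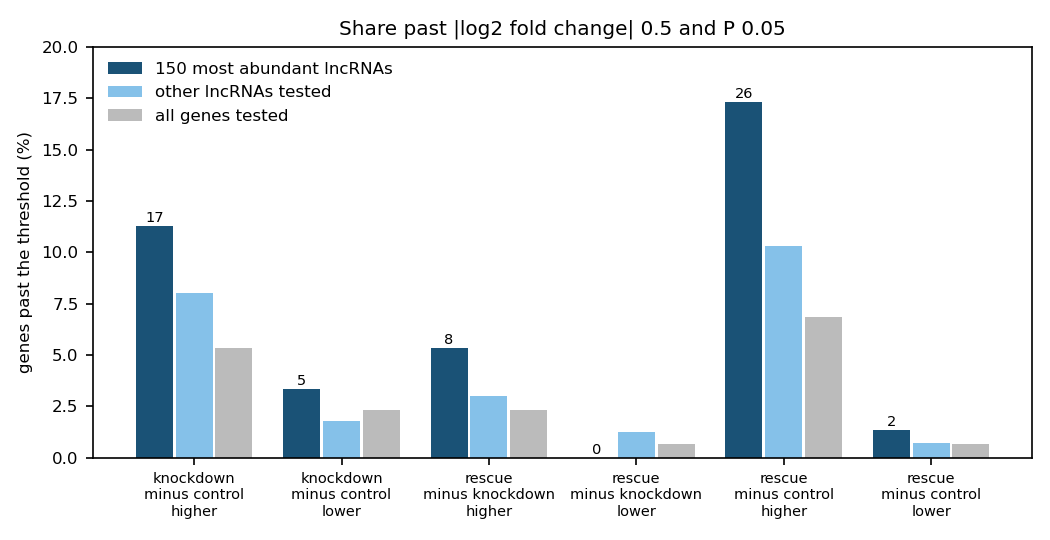
Percent of genes past a log2 fold change of 0.5 and an unadjusted P of 0.05 in each comparison and direction, for the 150 most abundant lncRNAs (dark bars, with their number above), the 959 other lncRNAs tested (light bars) and all 16378 genes tested (grey bars). The dark bars reach 11.3% for lncRNAs higher after knockdown and 17.3% for those higher in Ad-shmGULL+hGULL than in Ad-Ctrl.

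The second comparison asked what changed when human GULL was added to the hairpin virus. Against Ad-shmGULL, 8 of the 150 were higher in Ad-shmGULL+hGULL (5.33%, against 2.33% of all genes) and 0 lower (0.672% of all genes). None of the 150 had an adjusted p under 0.05 in either direction (limma), which also held for all genes (0% higher and 0% lower), while 18 of the 150 and 1757 of all genes had an unadjusted P under 0.05. Mice did not overlap in 9 lncRNAs that were higher and 1 that was lower, against 5.4% and 0.983% of all genes. The medians were 0.147 for the 150 and 0.0933 for all genes. Without mouse 1 of Ad-shmGULL 3 lncRNAs passed the threshold, and without its mouse 4 the number was 15. Of those 15, 1 had an adjusted p under 0.05. Genes of any type past the threshold numbered 492 with every mouse, 361 without mouse 1 and 616 without mouse 4. Mouse 1 had the high ribosomal share. After rescaling without Gm26917 and Gm42418, 7 of the 8 lncRNAs stayed past the threshold. The part of that share in the drop to 3 was not tested.

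The third comparison set the animals with both viruses against Ad-Ctrl. Here 26 of the 150 were higher (17.3%, against 6.84% of all genes and 10.3% of the other lncRNAs) and 2 lower (0.641% of all genes). Ranked by Ad-Ctrl mice alone, 18 were higher and 2 lower, and ranked by Ad-shmGULL, the group not compared, 28 and 2. At an adjusted p under 0.05 there were 8 higher and 0 lower, against 2.12% and 0.0244% of all genes. Groups did not overlap in 30 higher and 1 lower, against 21.4% and 0.855% of all genes, so that by this measure the 150 stood near the background. The median over all genes was 0.173, which scaling by the median of ratios brought to -0.00297, and the median of the 150 went from 0.203 to 0.0124. Scaling by the median of ratios and quantile normalization each left 14 higher and 4 lower, with 2 calls at an adjusted p. Over all 16378 genes, 1226 past the threshold became 723 and 701, and 352 at an adjusted p became 11 under each. Without mouse 2 of Ad-Ctrl 17 were higher and 1 lower, where 861 of all genes passed. The number of the 150 at an adjusted p ranged from 1 to 17 when single mice were left out, and was 1 without mouse 2, 3 or 4 of Ad-Ctrl or mouse 1, 2 or 3 of Ad-shmGULL+hGULL. Over all genes it ranged from 3 to 1068, and was 3 to 5 without any of those mice singly.

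By pattern, 16 lncRNAs were higher in both groups given the hairpin virus than in Ad-Ctrl (10.7%, against 3.21% of all genes), where both comparisons used the same 4 Ad-Ctrl mice and the ranking favoured such genes. Another 8 passed only for Ad-shmGULL+hGULL against Ad-Ctrl (5.33%, against 3.11%), and 1 only for Ad-shmGULL (0.667%, against 1.85%), a difference that the second comparison did not call for any of them. AW112010 and C4a were lower in Ad-shmGULL and higher again in Ad-shmGULL+hGULL than in Ad-shmGULL (1.33%, against 0.952%). C730036E19Rik and Gm5524 were higher in Ad-shmGULL+hGULL than in either other group (1.33%, against 0.452%).

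**Figure D3:**
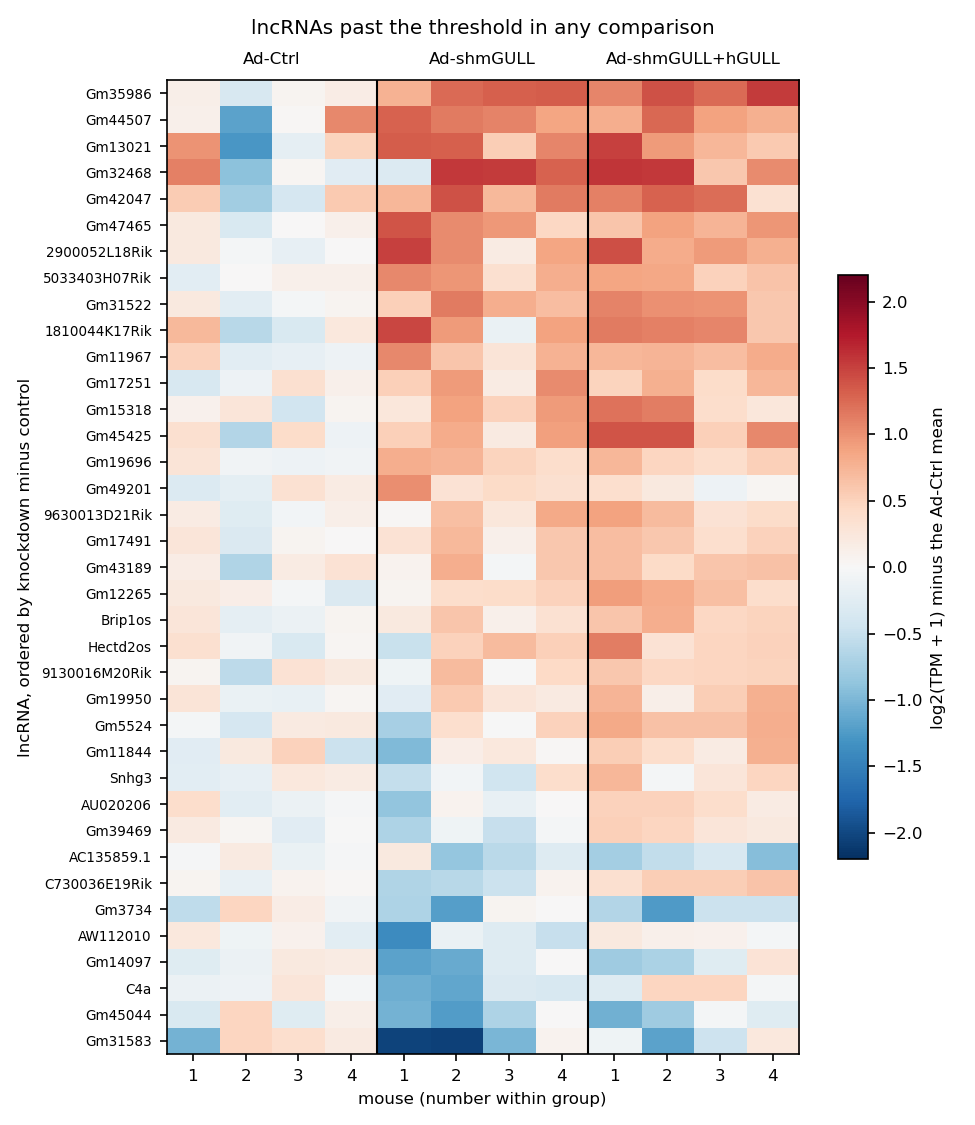
Level of the lncRNAs past the threshold in at least 1 comparison (1 of the 38 is not shown), as log2(TPM + 1) minus the mean of the 4 Ad-Ctrl mice (colour scale), with 1 column per mouse and rows ordered by the difference between Ad-shmGULL and Ad-Ctrl. Gm35986 at the top (1.17) is above the Ad-Ctrl mean in all 8 mice given Ad-shmGULL, and Gm31583 at the bottom (-1.26) varies most between mice of a group.

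Gm35986 had the largest rise. This 3-exon lncRNA (chr3:129527467-129532388, minus strand) starts back to back with Elovl6, which encodes the enzyme that lengthens palmitate to stearate in fatty acid synthesis, as seen in the capitals of its start region above. Its levels were 14.14, 9.779, 13.27 and 14.42 TPM in Ad-Ctrl, 22.48, 31.83, 33.26 and 33.64 TPM in Ad-shmGULL, and 28.08, 35.32, 31.62 and 38.85 TPM in Ad-shmGULL+hGULL. All 8 mice given the hairpin virus lay above all 4 Ad-Ctrl mice. The log2 fold change against Ad-Ctrl was 1.17 ± 0.153 (SE) in Ad-shmGULL (adjusted p = 0.00665, limma) and 1.31 ± 0.153 in Ad-shmGULL+hGULL (adjusted p = 0.00792), and both stayed under 0.05 in all 23 alternatives tried. Here and below, 2 of the 23 changed only the list, by median TPM or to the 100 highest. Values of a single gene could not move in those 2. Between the 2 hairpin groups the difference was 0.147 ± 0.153 (adjusted p = 0.723).

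Elovl6 itself was at 54.25, 49.3, 50.89 and 55.01 TPM in Ad-Ctrl, 142.2, 422.4, 187.2 and 176.1 TPM in Ad-shmGULL, and 114.7, 166.5, 105.6 and 113.5 TPM in Ad-shmGULL+hGULL. The coding gene, too, was higher in every mouse given the hairpin virus, with log2 fold changes of 1.99 ± 0.265 (adjusted p = 0.00677) and 1.22 ± 0.265 (adjusted p = 0.0426). Elovl6 was lower in Ad-shmGULL+hGULL than in Ad-shmGULL, by -0.774 ± 0.265 on the log2 scale (adjusted p = 0.399, limma), with overlapping mice. This fall was past the fold and P threshold, but not at an adjusted p under 0.05. Gm35986 was not past the threshold there, and whether the 2 genes differed in this change was not tested. The highest mouse for Elovl6, number 2 of Ad-shmGULL, was not the highest for Gm35986. The annotated exons of the 2 genes share 34 bases, 1.8% of the exonic length of Gm35986.

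Gm11967 is a multi-exon lncRNA whose rise was close to the adjusted threshold in both comparisons with Ad-Ctrl. It was at 18.5, 10.69, 11.14 and 11.74 TPM in Ad-Ctrl, 27.59, 19.95, 15.66 and 22.31 TPM in Ad-shmGULL, and 21.83, 22.11, 20.82 and 23.07 TPM in Ad-shmGULL+hGULL. Mouse 1 was the highest of Ad-Ctrl and of Ad-shmGULL, and 1 Ad-Ctrl mouse reached into the Ad-shmGULL range. The rise was 0.68 ± 0.176 in Ad-shmGULL (adjusted p = 0.0551, limma) and 0.744 ± 0.176 in Ad-shmGULL+hGULL (adjusted p = 0.0498, under 0.05 in 8 of the 23 alternatives and 0.0165 to 0.201 over them).

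Gm31522 (chr11:81980578-81987155, minus strand) starts 285 bases from Ccl2 and points away from it. Ccl2 encodes a chemokine that draws monocytes into tissue. Gm31522 was at 16.67, 12.09, 13.82 and 15.0 TPM in Ad-Ctrl, 20.96, 32.77, 25.54 and 23.62 TPM in Ad-shmGULL, and 31.47, 29.65, 29.53 and 21.98 TPM in Ad-shmGULL+hGULL, without overlap between Ad-Ctrl and the others. The differences were 0.786 ± 0.148 (adjusted p = 0.0181, limma) and 0.918 ± 0.148 (adjusted p = 0.0325), under 0.05 in 20 and 15 of the 23 alternatives. Ccl2 showed no such separation, with 2.546 to 6.044 TPM in Ad-Ctrl, 2.352 to 5.049 TPM in Ad-shmGULL and 2.654 to 6.498 TPM in Ad-shmGULL+hGULL, all groups overlapping (log2 fold changes of -0.338 ± 0.288 and -0.0231 ± 0.288).

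5033403H07Rik (chr5:52973012-52992292, minus strand) has no coding gene within 5000 bases. Its nearest coding gene, 37725 bases away, is Slc34a2, which encodes a sodium-dependent phosphate transporter. The lncRNA was at 17.59, 21.03, 22.61 and 22.66 TPM in Ad-Ctrl, 44.28, 41.97, 27.02 and 37.04 TPM in Ad-shmGULL, and 39.03, 38.42, 30.0 and 32.84 TPM in Ad-shmGULL+hGULL. All mice given the hairpin virus were again above Ad-Ctrl, by 0.795 ± 0.147 (adjusted p = 0.0171, limma) and 0.714 ± 0.147 (adjusted p = 0.0414). The adjusted p stayed under 0.05 in 21 of the 23 alternatives for the first and in 9 for the second (highest 0.171). Slc34a2 was low, from 0.2242 to 0.5459 TPM in Ad-Ctrl, 1.424 to 5.702 TPM in Ad-shmGULL and 0.6338 to 2.958 TPM in Ad-shmGULL+hGULL, and it was higher by 1.33 ± 0.317 (adjusted p = 0.0427) and 0.976 ± 0.317 (adjusted p = 0.0973).

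**Figure D4:**
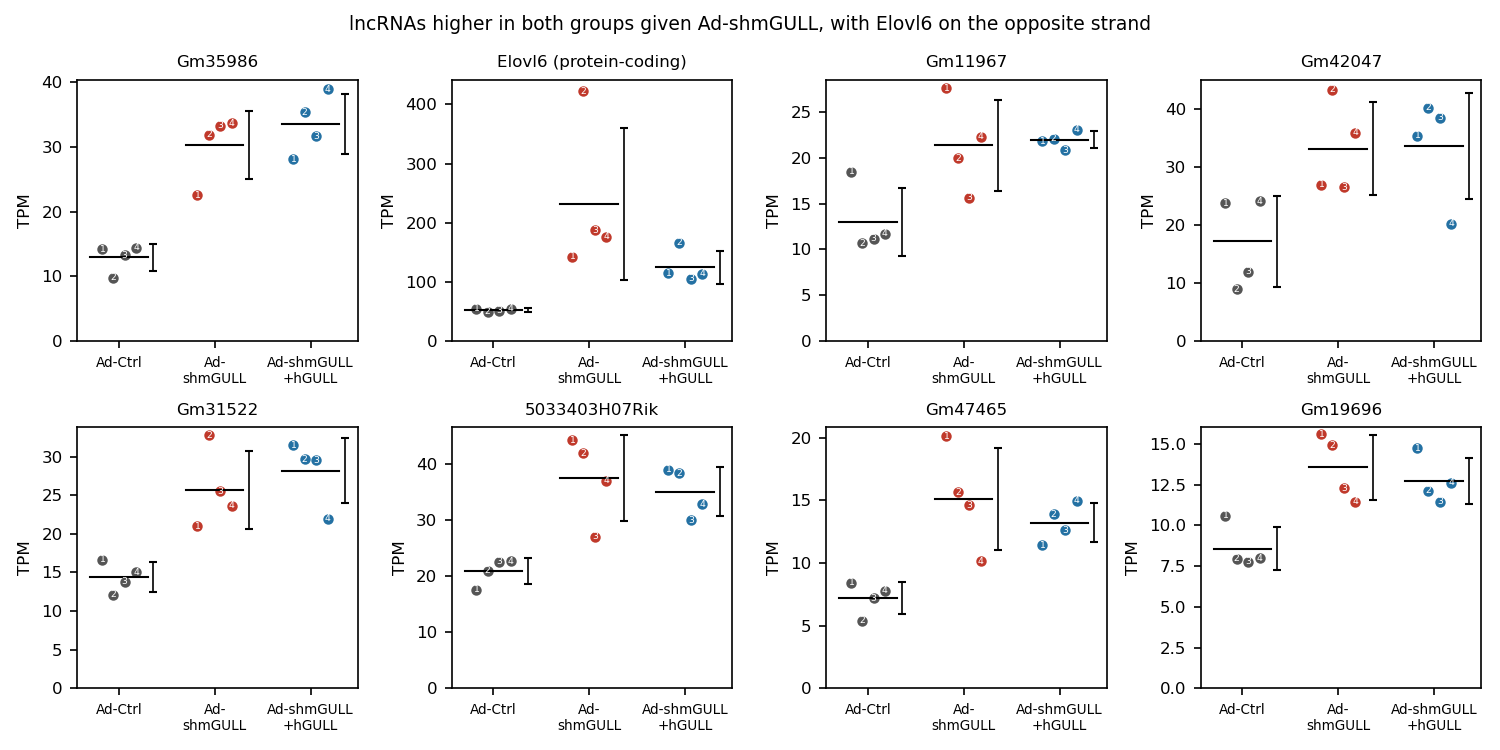
TPM of 7 lncRNAs and of the protein-coding gene Elovl6 in each mouse (points, numbered within the group), with the group mean (horizontal line) and SD (bar, n = 4). In Gm35986, Gm31522, 5033403H07Rik, Gm47465 and Gm19696 each mouse of both groups given Ad-shmGULL is above each Ad-Ctrl mouse, and in Gm11967 mouse 1 of Ad-Ctrl (18.5 TPM) lies above mouse 3 of Ad-shmGULL (15.66 TPM).

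Gm47465 and Gm19696 are multi-exon lncRNAs with no coding gene within 5000 bases. Gm47465 was at 8.422, 5.402, 7.173 and 7.785 TPM in Ad-Ctrl, 20.11, 15.66, 14.63 and 10.13 TPM in Ad-shmGULL, and 11.44, 13.9, 12.62 and 14.96 TPM in Ad-shmGULL+hGULL. Its differences from Ad-Ctrl were 0.955 ± 0.179 (adjusted p = 0.0179, limma) and 0.805 ± 0.179 (adjusted p = 0.0441), under 0.05 in 19 and 9 of the 23 alternatives. Gm19696 (chr17:84134017-84156428, minus strand) was at 10.59, 7.961, 7.769 and 7.986 TPM in Ad-Ctrl, 15.6, 14.92, 12.28 and 11.44 TPM in Ad-shmGULL, and 14.74, 12.12, 11.45 and 12.62 TPM in Ad-shmGULL+hGULL. Its rise of 0.604 ± 0.127 in Ad-shmGULL had an adjusted p of 0.027 (under 0.05 in 16 of the 23 alternatives), and that of 0.524 ± 0.127 in Ad-shmGULL+hGULL one of 0.0508. The second value fell to 0.341 under scaling by the median of ratios, below the fold threshold, and to 0.457 to 0.497 without any of 4 single mice (mice 2, 3 and 4 of Ad-Ctrl and mouse 1 of Ad-shmGULL+hGULL).

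Another pair passed an adjusted p under 0.05 after knockdown with a change smaller than 0.5. Gm36419 was at 18.68, 15.98, 19.26 and 17.77 TPM in Ad-Ctrl, 25.87, 20.01, 25.72 and 26.07 TPM in Ad-shmGULL, and 19.59, 20.14, 20.99 and 19.04 TPM in Ad-shmGULL+hGULL. Its difference was 0.421 ± 0.096 (adjusted p = 0.0375, limma) in Ad-shmGULL and 0.149 ± 0.096 (adjusted p = 0.343) in Ad-shmGULL+hGULL. 1810019D21Rik, which lies opposite the splicing regulator gene Esrp2, was at 23.76 to 30.36 TPM in Ad-Ctrl, 34.7 to 37.49 TPM in Ad-shmGULL and 30.36 to 36.0 TPM in Ad-shmGULL+hGULL, with differences of 0.377 ± 0.0877 (adjusted p = 0.0397) and 0.284 ± 0.0877 (adjusted p = 0.0875). Both were steady, with residual SDs of 0.126 and 0.113 on the log2 scale.

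Gm42047 rose past the fold and P threshold with mice of Ad-shmGULL and Ad-Ctrl apart, but not at an adjusted p under 0.05. Gm42047, divergent from Klhdc4, was at 23.8, 8.941, 11.96 and 24.11 TPM in Ad-Ctrl, 27.01, 43.34, 26.55 and 35.95 TPM in Ad-shmGULL, and 35.47, 40.23, 38.52 and 20.21 TPM in Ad-shmGULL+hGULL. The difference in Ad-shmGULL was 0.995 ± 0.308 (adjusted p = 0.0943, limma).

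In Ad-shmGULL+hGULL against Ad-Ctrl, the rises of Gm45425, Gm12265 and Brip1os also had an adjusted p under 0.05, which held in 9, 10 and 9 of the 23 alternatives. Gm45425 was at 10.73, 4.906, 11.13 and 7.553 TPM in Ad-Ctrl, 12.27, 15.26, 9.556 and 16.12 TPM in Ad-shmGULL, and 23.04, 23.04, 12.32 and 18.07 TPM in Ad-shmGULL+hGULL, 1.09 ± 0.253 above Ad-Ctrl (adjusted p = 0.0478, limma). Gm12265, opposite the trafficking gene Tom1l2, was at 24.02, 22.67, 19.78 and 16.16 TPM in Ad-Ctrl, 21.39, 27.07, 27.25 and 29.55 TPM in Ad-shmGULL, and 39.47, 36.72, 32.81 and 27.19 TPM in Ad-shmGULL+hGULL. It stood 0.696 ± 0.145 above Ad-Ctrl (adjusted p = 0.0414) and overlapped between the 2 hairpin groups. Gm12265 shares 40% of its exonic bases with Tom1l2. Tom1l2 stood 0.232 ± 0.0782 above Ad-Ctrl in Ad-shmGULL+hGULL (adjusted p = 0.105, limma), with mice apart. Brip1os (chr11:86201360-86304443, plus strand) lies opposite Brip1, a DNA repair helicase gene, as well as Ints2 and Med13. Brip1os was at 14.05 to 19.65 TPM in Ad-Ctrl, 17.54 to 25.32 TPM in Ad-shmGULL and 22.6 to 29.0 TPM in Ad-shmGULL+hGULL, a rise of 0.591 ± 0.131 (adjusted p = 0.0441) that was 0.399 under scaling by the median of ratios. Brip1 stood 0.471 ± 0.147 above Ad-Ctrl there (adjusted p = 0.0903), at 5.796 to 7.119 TPM against 3.218 to 5.225 TPM.

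Further lncRNAs past the fold and P threshold in that comparison, with mice apart, were 2900052L18Rik and Gm17251. 2900052L18Rik (chr11:120225529-120231617, minus strand), divergent from Bahcc1, was at 7.502, 6.168, 5.454 and 6.386 TPM in Ad-Ctrl, 19.93, 14.1, 7.354 and 12.36 TPM in Ad-shmGULL, and 18.65, 11.9, 13.0 and 11.64 TPM in Ad-shmGULL+hGULL, a rise of 0.987 ± 0.234 (adjusted p = 0.05, not under 0.05, limma). Bahcc1 stood 0.302 ± 0.0997 above Ad-Ctrl in Ad-shmGULL+hGULL (adjusted p = 0.101, limma), with mice apart. Gm17251 (chr17:33759858-33761867, plus strand) lies opposite Rab11b, a gene of vesicle recycling, and shares 25.7% of its exonic bases with it. It was at 7.169 to 12.3 TPM in Ad-Ctrl, 10.88 to 20.58 TPM in Ad-shmGULL and 12.81 to 17.02 TPM in Ad-shmGULL+hGULL. Its rise of 0.603 ± 0.194 (adjusted p = 0.0964, limma) was 0.485 without mouse 1 of Ad-Ctrl and 0.416 under scaling by the median of ratios. Rab11b stood 0.239 ± 0.0888 above Ad-Ctrl in Ad-shmGULL+hGULL (adjusted p = 0.131, limma), also with mice apart.

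Of the 26 lncRNAs higher in Ad-shmGULL+hGULL than in Ad-Ctrl, 11 overlapped a coding gene on the opposite strand, as did 58 of all 150. On the same strand as its neighbour, 9130016M20Rik, 1089 bases from A1cf, a factor for editing of Apob messenger RNA, was at 76.22, 119.6, 132.3 and 142.1 TPM in Ad-Ctrl in ascending order and at 157.5 to 174.0 TPM in Ad-shmGULL+hGULL. Its mice lay apart, with a rise of 0.506 ± 0.199 (adjusted p = 0.146, limma), and A1cf rose by 0.598 ± 0.173 (adjusted p = 0.0766). For 9130016M20Rik the adjusted p was under 0.05 in 0 of the 23 alternatives. The value for 9130016M20Rik was 0.313 without mouse 2 of Ad-Ctrl, 0.475 without mouse 1 of Ad-shmGULL+hGULL and 0.306 under scaling by the median of ratios.

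The lncRNA lower in Ad-shmGULL+hGULL than in Ad-Ctrl with mice apart was AC135859.1, a single-exon model that lies within Gls2, the liver glutaminase gene, on the same strand. It was at 22.42, 26.32, 20.67 and 22.44 TPM in Ad-Ctrl, 26.8, 12.23, 14.8 and 18.64 TPM in Ad-shmGULL, and 13.18, 15.46, 17.68 and 11.53 TPM in Ad-shmGULL+hGULL, a fall of -0.643 ± 0.198 (adjusted p = 0.0875, limma). Gls2 differed by -0.0954 ± 0.166 (adjusted p = 0.74). The other fall was that of Gm3734 (-0.709 ± 0.293), in which the groups overlapped.

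AW112010 was the only lncRNA with a mean above 100 TPM that passed the threshold in more than 1 comparison. It is transcribed in immune cells upon infection and interferon, and was at 429.6, 341.7, 387.0 and 309.3 TPM in Ad-Ctrl, 138.2, 327.8, 297.3 and 256.4 TPM in Ad-shmGULL, and 424.1, 395.4, 388.8 and 353.5 TPM in Ad-shmGULL+hGULL. Mouse 1 of Ad-shmGULL was far below the rest, and Ad-Ctrl overlapped both groups. The difference was -0.585 ± 0.217 after knockdown (adjusted p = 0.15, limma) and 0.682 ± 0.217 between the hairpin groups (adjusted p = 0.374), whereas Ad-shmGULL+hGULL differed from Ad-Ctrl by 0.0975 ± 0.217. Without mouse 1 of Ad-shmGULL the first 2 values were -0.316 and 0.413, below the fold threshold. The first was -0.505 without mouse 1 of Ad-Ctrl, where its P missed the threshold. Marker sums of T and NK cells (5 genes) were 16.61 to 56.29, 15.63 to 38.41 and 31.56 to 43.03 TPM in the 3 groups. After knockdown Gzmb and Nkg7 differed by -0.607 and -0.208, and Cd3e, Cd3g and Cd8a by 0.208 to 0.269. Between the hairpin groups Gzmb and Nkg7 differed by 1.03 and 0.334, and the other genes by 0.0211 to 0.167. The part of these markers in the AW112010 result was not tested.

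C4a (chr17:34809092-34823460) is a complement gene next to its near-identical copy C4b, typed lncRNA in the table, so its reads are uncertain between the 2. It was at 39.26, 39.91, 51.98 and 41.95 TPM in Ad-Ctrl, 19.89, 18.92, 34.17 and 33.55 TPM in Ad-shmGULL, and 35.09, 60.04, 59.85 and 41.7 TPM in Ad-shmGULL+hGULL. Ad-shmGULL lay below both other groups in every mouse. C4a was lower by -0.722 ± 0.22 after knockdown (adjusted p = 0.0891, limma) and higher by 0.875 ± 0.22 between the hairpin groups (adjusted p = 0.318). C4b, at 1019 to 1167, 804.7 to 1095 and 1140 to 1223 TPM, differed by -0.126 ± 0.105 and 0.253 ± 0.105 in the same comparisons.

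C730036E19Rik (chr1:151138034-151144095, plus strand) had the largest difference between the hairpin groups. Its levels were 70.88, 61.05, 71.89 and 69.82 TPM in Ad-Ctrl, 42.93, 44.19, 49.09 and 71.66 TPM in Ad-shmGULL, and 87.04, 99.29, 99.7 and 105.6 TPM in Ad-shmGULL+hGULL. All 4 mice with human GULL lay above the other 8, and mouse 4 of Ad-shmGULL lay with Ad-Ctrl. The difference was 0.928 ± 0.139 (adjusted p = 0.117, limma). The adjusted p was under 0.05 in only 1 of the 23 alternatives and ranged from 0.00132 to 0.485 over them. Against Ad-Ctrl the rise in Ad-shmGULL+hGULL was 0.51 ± 0.139 (adjusted p = 0.0656), which became 0.311 under scaling by the median of ratios, 0.457 without mouse 2 of Ad-Ctrl and 0.473 without mouse 4 of Ad-shmGULL+hGULL.

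Gm39469, Gm5524 and AU020206 were also higher in Ad-shmGULL+hGULL than in Ad-shmGULL, with mice apart. Gm39469 (chr9:124267884-124283417), which RefSeq types as protein-coding, was at 36.81, 33.14, 26.89 and 31.77 TPM in Ad-Ctrl, 19.52, 29.88, 22.13 and 30.97 TPM in Ad-shmGULL, and 46.33, 45.0, 38.48 and 37.33 TPM in Ad-shmGULL+hGULL, a difference of 0.703 ± 0.148 (adjusted p = 0.282, limma). Gm5524 (chr1:27884046-27902187) was at 26.22, 20.56, 30.92 and 31.52 TPM, 15.76, 34.88, 26.75 and 38.63 TPM, and 48.85, 42.65, 42.72 and 47.73 TPM in the same order. It stood 0.702 ± 0.225 above Ad-shmGULL (adjusted p = 0.374, limma) and 0.732 ± 0.225 above Ad-Ctrl (adjusted p = 0.087). AU020206 (chr7:75769038-75782120), opposite the scaffold gene Akap13, was at 13.6 to 21.46, 8.432 to 17.07 and 18.4 to 23.46 TPM, 0.63 ± 0.195 above Ad-shmGULL (adjusted p = 0.371, limma). Mouse 1 of Ad-shmGULL was the lowest in all 3 genes, and without it the differences were 0.587, 0.447 and 0.421, of which only the first was past the threshold.

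**Figure D5:**
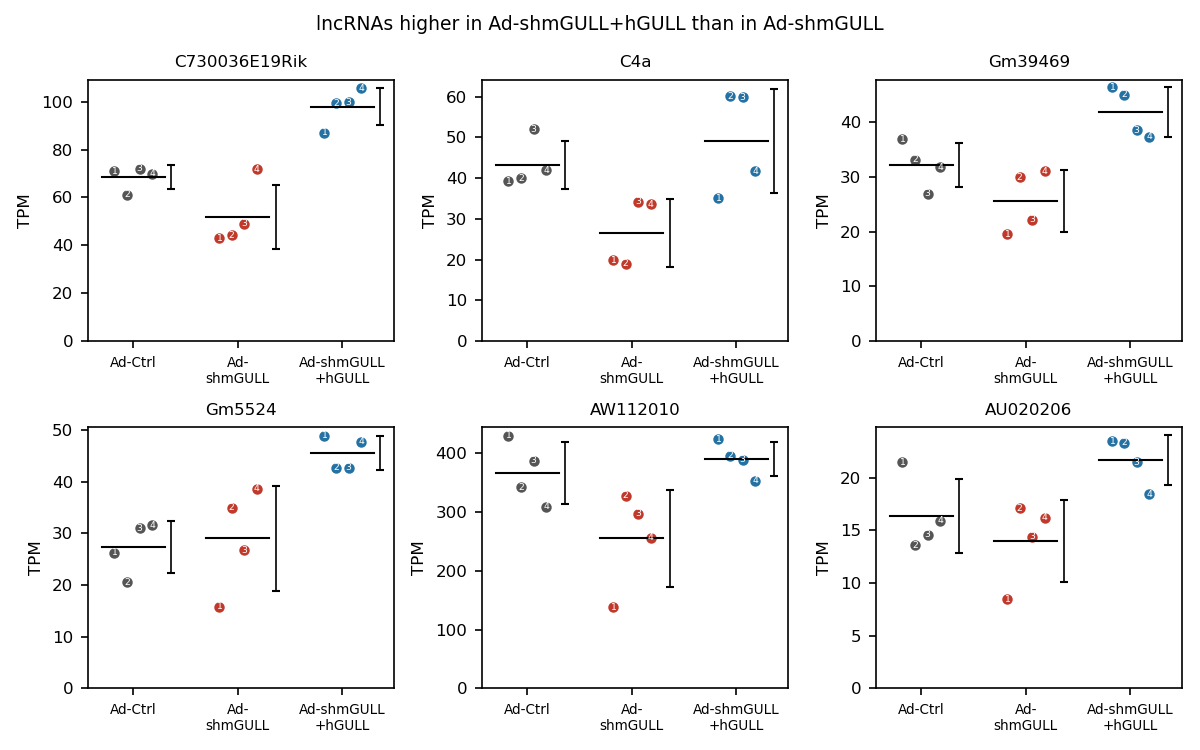
TPM of the 6 lncRNAs that were past the threshold between Ad-shmGULL+hGULL and Ad-shmGULL with mice apart, in each mouse (points, numbered within the group), with the group mean (line) and SD (bar, n = 4). Each mouse of Ad-shmGULL+hGULL is above each mouse of Ad-shmGULL, and mouse 1 of Ad-shmGULL is the lowest of all 12 in Gm39469, Gm5524, AW112010, AU020206 and C730036E19Rik.

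The nuclear and structural lncRNAs, 7 of 14 on the list, passed the threshold in no comparison, with medians of 0.00494, 0.117 and 0.0369 in the 3 comparisons. Malat1, a lncRNA of nuclear speckles, was at 3128, 2630, 2813 and 3057 TPM in Ad-Ctrl, 2122, 3362, 2576 and 2921 TPM in Ad-shmGULL, and 2941, 3127, 2704 and 2988 TPM in Ad-shmGULL+hGULL. It differed from Ad-Ctrl by -0.0995 ± 0.137 and 0.0176 ± 0.137. Neat1, the scaffold of paraspeckles, varied far more between mice, from 216.8 to 655.2 TPM in Ad-Ctrl, 320.2 to 554.6 TPM in Ad-shmGULL and 226.6 to 498.6 TPM in Ad-shmGULL+hGULL, with a residual SD of 0.539 against 0.183 for Malat1. Oip5os1, which binds miR-7, was at 36.11 to 48.14, 29.93 to 40.05 and 44.09 to 49.0 TPM, with differences of -0.265 ± 0.112 after knockdown and 0.301 ± 0.112 between the hairpin groups. Lncpint, a target of p53, differed by -0.306 ± 0.104 after knockdown (adjusted p = 0.12). Tug1 differed by 0.309 ± 0.128 between Ad-shmGULL+hGULL and Ad-Ctrl. 2900097C17Rik differed by 0.275 ± 0.103 after knockdown (adjusted p = 0.154). Firre, a nuclear lncRNA of the X chromosome, was the steadiest of these, at 15.04 to 17.99, 15.76 to 17.61 and 16.99 to 18.32 TPM.

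Hosts of snoRNAs, which guide the chemical modification of ribosomal RNA, were 7 of 23 on the list, and 1 of the 7, Snhg3, was higher in Ad-shmGULL+hGULL than in Ad-shmGULL. The medians were -0.135, 0.19 and 0.0615. Snhg3 was at 19.04, 19.63, 26.53 and 25.55 TPM in Ad-Ctrl, 15.28, 21.44, 16.34 and 29.71 TPM in Ad-shmGULL, and 37.94, 21.8, 27.19 and 31.56 TPM in Ad-shmGULL+hGULL, a difference of 0.517 ± 0.21 (adjusted p = 0.422, limma) with overlapping groups. Its exons share 633 bases with Rcc1, which is annotated on the same strand. 2410006H16Rik, the highest of the hosts, was at 50.73 to 80.52, 55.97 to 89.06 and 62.37 to 83.81 TPM. Snhg8 was at 20.78 to 25.95, 24.01 to 28.8 and 27.48 to 34.02 TPM, 0.349 ± 0.0923 higher in Ad-shmGULL+hGULL than in Ad-Ctrl (adjusted p = 0.0619). Epb41l4aos and Gas5 differed by 0.252 ± 0.173 and 0.19 ± 0.0916 between the hairpin groups.

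For the miRNA hosts, 3 were on the list and passed the threshold in no comparison, with medians of -0.229, 0.107 and -0.18, and the others were found by their annotation. Mir22hg was at 34.0 to 53.8, 36.57 to 42.19 and 33.06 to 44.39 TPM. A330023F24Rik, host of the miR-29b and miR-29c printed above with 1 shared seed, was at 13.54, 13.85, 16.16 and 15.09 TPM in Ad-Ctrl, 9.381, 11.04, 12.86 and 10.59 TPM in Ad-shmGULL, and 12.88, 10.47, 14.4 and 13.77 TPM in Ad-shmGULL+hGULL. Its mice in Ad-shmGULL lay below those of Ad-Ctrl, by -0.393 ± 0.116 (adjusted p = 0.0823, limma), short of the fold threshold. Mir142hg and F630028O10Rik, hosts of miR-142 and miR-223 of blood cells, overlapped in all groups, at 11.06 to 30.44 TPM and 7.998 to 19.95 TPM over the 12 mice.

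1810044K17Rik, host of miR-802, was past the fold and P threshold in both groups given the hairpin virus. It was at 22.23, 8.267, 10.14 and 15.62 TPM in Ad-Ctrl, 37.91, 26.11, 11.77 and 24.97 TPM in Ad-shmGULL, and 30.32, 29.51, 28.89 and 20.32 TPM in Ad-shmGULL+hGULL. The groups overlapped, and the differences were 0.784 ± 0.329 (adjusted p = 0.203, limma) and 0.984 ± 0.329 (adjusted p = 0.103). This gene was named after its values were seen. Gm29966, the host of miR-122, was at 54.33 to 123.1, 68.25 to 171.8 and 70.81 to 110.8 TPM, and differed from Ad-Ctrl by 0.138 ± 0.323 and 0.236 ± 0.323. E130102H24Rik, host of miR-101a, was 0.451 ± 0.168 higher in Ad-shmGULL+hGULL than in Ad-Ctrl (adjusted p = 0.132), with mice apart.

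On the interferon and immune list were 2 of the 150, AW112010 and Mir142hg, with medians of -0.2, 0.395 and 0.195, of which AW112010 passed as described. No lncRNA of the lists for imprinted genes, X inactivation or liver metabolism was among the 150. Of the liver metabolism list, Gm15441 was at 2.082 to 16.77 TPM and Gm16551 at 1.412 to 4.715 TPM.

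The remaining lncRNAs above 100 TPM were not past the threshold in any comparison. BC024386 was at 325.0 to 479.0, 307.8 to 452.0 and 337.7 to 407.3 TPM, and Gm20319, which lies opposite the interleukin 1 receptor subunit gene Il1rap, at 114.5 to 135.3, 94.0 to 156.0 and 125.5 to 142.7 TPM. 0610005C13Rik, opposite Bcat2, a gene of branched-chain amino acid breakdown, was at 102.4 to 128.4, 85.27 to 111.1 and 101.4 to 116.1 TPM, with a difference of -0.274 ± 0.1 after knockdown (adjusted p = 0.146, limma). Ifi30, a lysosomal thiol reductase gene that is protein-coding in the newer annotation, was at 72.39 to 173.9, 102.6 to 157.8 and 138.7 to 167.1 TPM, and stood 0.494 ± 0.231 above Ad-Ctrl in Ad-shmGULL+hGULL, just under the fold threshold.

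Mice of a group differed more in these lncRNAs than in the average gene. The median residual SD was 0.286 on the log2 scale, against 0.2055 for all genes tested, and 16 of the 150 were above 0.5. Gm43305 was the most variable, at 20.89, 7.907, 61.21 and 29.58 TPM in Ad-Ctrl, 6.694, 54.39, 28.32 and 48.67 TPM in Ad-shmGULL, and 36.88, 8.029, 43.98 and 6.919 TPM in Ad-shmGULL+hGULL (residual SD 1.268). No group stood apart in it. Gm31583, whose nearest coding gene is Bcl6, a transcriptional repressor, was at 19.91, 58.27, 54.59 and 48.37 TPM in Ad-Ctrl, 9.438, 9.385, 20.27 and 44.25 TPM in Ad-shmGULL, and 39.0, 17.91, 30.3 and 49.58 TPM in Ad-shmGULL+hGULL. It had the largest fall after knockdown, -1.26 ± 0.479 (adjusted p = 0.162, limma), with overlapping mice, and was named after its values were seen, as were Gm43305, Gm3734 and Gm29966.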

How the data were processed

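Liver RNA of 12 mice was read as strand-specific libraries of total RNA. The authors deposited 1 table of TPM values per gene, made per the submitters' processing notes with fastp 0.23.2, FastQC 0.11.8, HISAT2 2.2.1.0 and featureCounts (Subread 2.0) on GRCm38.p6 with GENCODE VM24. The deposited TPM sum to the same total in every mouse, so the depth is unknown and no counting interval was given. Genes with a mean TPM of at least 1 (16378) were tested as log2(TPM + 1) in limma 3.58.1 (R 4.3.3) with all 3 groups in 1 fit, a mean-variance trend and Benjamini-Hochberg adjustment over all genes tested. The test behind the study's threshold was not given in the sources used here.

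Named lncRNAs were the 10 highest, those past the fold and P threshold with groups apart (up to 10 in each direction and comparison), all with an adjusted p under 0.05, the largest changes and highest level of each list, and those at the edge of rank 150. Members and lists were chosen with earlier results of these data known. Alternatives covered the pseudocount, filter, scaling, samples in the fit, variance prior, replicate number, list length and single mice. The scripts were tested on simulated data. Results that need certain genes are not reported here. Figures were drawn with matplotlib 3.10.9.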

Additional observations from a re-analysis of the deposited data

Results flagged for a closer look

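Among the 93 group values of named lncRNAs that were examined, 4 had 1 mouse far from the other 3 of its group (gap to the nearest mouse divided by the range of the group above Dixon's limit for 4 samples). Chance gives such a gap in about 1 of 20 groups. Gm35986 was at 22.48 TPM in mouse 1 of Ad-shmGULL, where the next mouse was at 31.83 TPM, and this low mouse still lay above all Ad-Ctrl mice. Gm19696 was at 10.59 TPM in mouse 1 of Ad-Ctrl, against 7.986 TPM in the next. Gm36419 was at 20.01 TPM in mouse 2 of Ad-shmGULL, against 25.72 TPM in the next. Gm11967 was at 18.5 TPM in mouse 1 of Ad-Ctrl, against 11.74 TPM in the next.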

How the results depend on the processing

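The log2 fold changes of the 36 named results were recomputed in 23 alternatives, and none turned. Of the values with 1 mouse left out 409 stayed on their side of the fold and P threshold and 23 lost it, and of the others 382 stayed and 14 lost it. These tallies include values that could not move. The alternatives that changed only the list did not refit any gene. Leaving out a mouse of the group not compared could change the P but not the fold change. After knockdown, the 22 lncRNAs past the threshold were 13 among the 100 highest and 14 to 30 with single mice left out, and the 7 with an adjusted p under 0.05 were 4 with no filter on low values, 1 with only the 2 groups compared in the fit and 2 to 16 with single mice left out. Over all genes, 1253 of 16378 past the threshold became 1024 to 1646 with single mice left out. The 529 of 16378 with an adjusted p under 0.05 became 236 of 30810 with no filter. They were 33 with only the 2 groups compared and 165 to 1057 with single mice left out. Between the hairpin groups, 8 past the threshold became 3 to 15 and 0 with an adjusted p became 0 to 1 with single mice left out. For all genes there, 492 past the threshold became 361 to 848, and 0 with an adjusted p became 0 to 2. For Ad-shmGULL+hGULL against Ad-Ctrl, the 28 past the threshold were 18 with median-of-ratios scaling, 18 with quantile normalization and 18 to 34 with single mice left out. Over all genes the 1226 past the threshold were 723, 701 and 861 to 1692 in the same order. The 8 lncRNAs with an adjusted p there were 1 with no filter, 15 with a mean TPM of at least 5, 22 with only the 2 groups compared, and 2 each with median-of-ratios scaling, quantile normalization, no mean-variance trend and the replicate block. They were 3 after rescaling without Gm26917 and Gm42418, an alternative chosen after seeing the data, and 1 to 17 with single mice left out. Calls at an adjusted p over all genes also shifted, from 352 of 16378 to 9 of 30810 with no filter. They were 568 of 10948 with a mean TPM of at least 5 and 1693 of 16378 with only the 2 groups compared. Median-of-ratios scaling and quantile normalization gave 11 each, no mean-variance trend 35 and the replicate block 71. Rescaling without the pair gave 143, and leaving out single mice 3 to 1068. Ranking the lncRNAs by Ad-Ctrl mice alone or by the group not compared, also chosen after seeing the data, gave 15 and 21 past the threshold after knockdown, 8 and 8 between the hairpin groups, and 20 and 30 in the third comparison. The cause of these shifts was not tested. Same-numbered mice of different groups correlated between -0.244 and 0.154 in their deviations from the group means, and differently numbered mice between -0.175 and 0.175, so the numbers did not pair the mice. With the replicate block 22, 9 and 27 lncRNAs passed the threshold in the 3 comparisons, and 9, 0 and 2 had an adjusted p under 0.05. With 4 mice in each group and no depth known, the precision rests on the spread between mice alone.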
